A study of Mus musculus with 36 samples.

Results

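The 57 genes described here encode the enzymes that modify foreign compounds and steroids in the gut epithelium, and they were measured in mouse intestinal organoids. They were chosen by symbol and level. Every listed gene whose mouse symbol begins with Cyp2, Cyp3 or Cyp4 and a letter, Ugt1 or Ugt2, Gst followed by a, m, o, p, t or z, or Sult1 to Sult6 was taken, pseudogenes marked -ps were left out, and a mean of at least 1 CPM (counts scaled to a common library size) over all 36 libraries was required. Of 52636 genes listed, 140 had such a symbol and 57 reached that level, while 27 had no count in any library. The 57 are 25 cytochromes P450, 7 UDP-glucuronosyltransferases (UGT), 19 glutathione S-transferases (GST) and 6 sulfotransferases (SULT). Just inside the minimum were Cyp2d22 with a mean of 1.21 CPM, Cyp2c70 with 1.53 CPM and Sult4a1 with 1.96 CPM, and just outside it were Cyp4f39 with 0.957 CPM, Cyp2d10 with 0.902 CPM and Cyp2c37 with 0.642 CPM.

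The organoids were grown from jejunal crypts of C57BL/6 mice, and 6 libraries were made from each of 6 treatments. The control, complete media + IgG, was untreated apart from a control antibody. QCM + IgG and SCM + IgG received medium conditioned by quiescent, serum-deprived mouse embryonic fibroblasts and by senescent ones, Wnt5a + IgG received recombinant Wnt5a, a ligand of noncanonical Wnt signalling, in complete media, and SCM + anti-Ptk7 and Wnt5a + anti-Ptk7 received an antibody against Ptk7 in place of IgG. Ptk7 is a transmembrane protein of Wnt signalling whose extracellular part can be shed into the medium, and in SCM the antibody was meant to block that shed part. Complete media with anti-Ptk7 was not analysed here, so the effect of the antibody alone on these genes is not known. In organoids without other treatment, the authors saw fewer calcium oscillations under the antibody. They propose that the organoids' own Ptk7 has a part in calcium signalling. The conditioned media are mixtures of all that the fibroblasts secrete. The libraries held between 9581589 and 21029769 counts with a median of 13490071. Markers of the epithelium were abundant, with Epcam at 1880 CPM (SD 44.8, n = 6) in complete media, while 8 fibroblast markers together lay between 1.41 and 4.43 CPM in the group means and the hepatocyte gene Alb was at 0.256 CPM in complete media. Libraries that stood apart were those numbered 1 and 5 and 1 numbered 3. In Wnt5a + IgG replicate 1 the UGT members summed to 462 CPM against 742 to 861 CPM in the other 5, and in Wnt5a + anti-Ptk7 replicate 1 the GST members summed to 2220 CPM against 3137 to 3563 CPM, while in QCM + IgG replicate 5 they summed to 5266 CPM against 3842 to 4331 CPM. In bulk RNA, fewer cells of a type and less RNA per cell cannot be told apart.

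Metabolism of a foreign compound is usually described in phases. In phase I, cytochromes P450 of the microsomal membrane insert oxygen into the molecule with electrons from NADPH. In phase II, transferases couple it to a polar group, which is glucuronic acid for UGT, glutathione for GST and sulfate for SULT, and transporters then carry the product out of the cell. The villus epithelium of the small intestine is a main site of this metabolism outside the liver, and many of these genes are induced through ligand-activated receptors such as Ahr, Nr1i2 (PXR) and Nr1i3 (CAR) or through Nfe2l2 (NRF2).

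Levels can be compared between genes only per length, for which CPM was divided by the coding length in kb. In complete media the means ran from 0.852 CPM per kb for Cyp2d22 to 1493 for Gstm3. The GST were led by Gstm3 with 1493 CPM per kb (SD 93.5, n = 6), Gstm1 with 1340, Gsta4, which conjugates the lipid peroxidation product 4-hydroxynonenal, with 1126, and the omega class enzyme Gsto1 with 1109, and the leading members of the other GST classes were Gstp1 with 494, Gstt2 with 83.4 and Gstz1, the maleylacetoacetate isomerase of tyrosine breakdown, with 81.2 CPM per kb. Among the P450, the highest levels were those of Cyp2c29 with 654 and Cyp2c55 with 590 CPM per kb, which act on arachidonic acid, then Cyp2b10, the classical target of CAR, with 342, Cyp3a11, the main steroid and drug oxidase of the Cyp3a subfamily, with 284 and Cyp2j6 with 281 CPM per kb. Cyp4f14, an omega-hydroxylase of leukotriene B4, had 138, Cyp2d26 49.2, Cyp2s1 24.9, Cyp4b1 22, Cyp4v3 20.4, Cyp2u1 17.5, Cyp2w1 3.10 and the vitamin D 25-hydroxylase Cyp2r1 1.2 CPM per kb. Ugt2b34 with 205 and Ugt1a7c with 102 CPM per kb led the UGT, and Ugt2a3 had 32. The SULT were lower as a class, led by the catechol sulfotransferase Sult1d1 with 74.5 and Sult1b1 with 36.6 CPM per kb, with Sult2b1, which sulfates cholesterol, at 18.6 and the brain-type Sult4a1 at 1.28 CPM per kb. Whole subfamilies were under the minimum, among them Cyp2a with 0 of 5, Cyp4a with 0 of 8, Sult2a with 0 of 8 and Cyp2e1, the ethanol-oxidizing P450, while all 7 Gstm, 4 Gsta and 3 Gstp genes passed it.

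**Figure D1:**
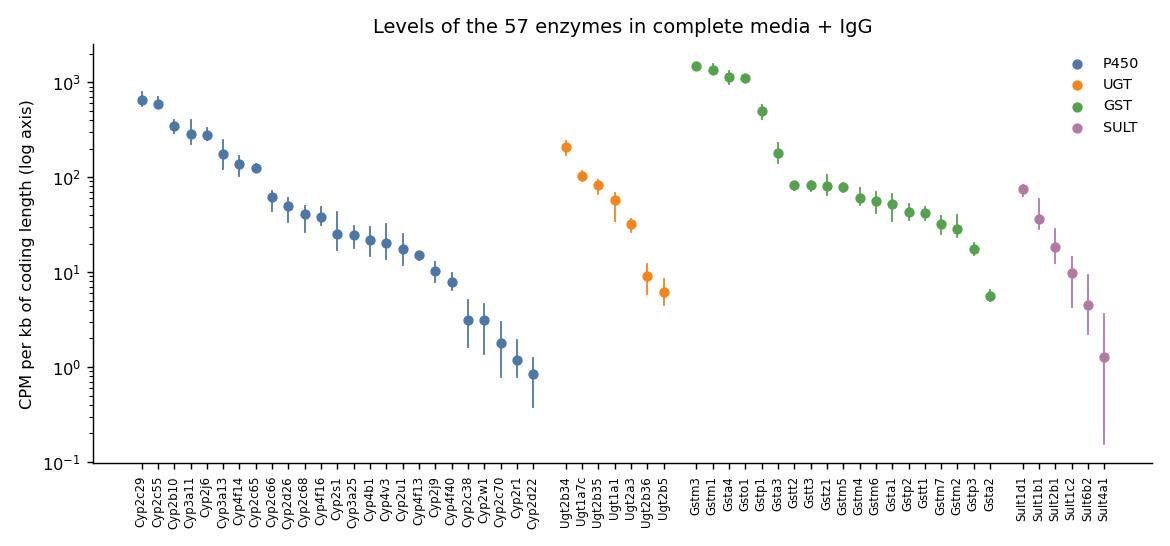
Level of each of the 57 enzymes in the 6 libraries of complete media + IgG, in CPM per kb of coding length on a log axis. Points are means and lines run from the lowest to the highest library. The 4 leading GST lie above 1000 CPM per kb, above every P450.

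Some of these levels rest on counts that paralogs can share. The UGT1A genes end in common exons, so that 735 of the 1605 coding bases of Ugt1a1 also belong to Ugt1a7c and 7 other Ugt1a genes, and Gstt3 shares 524 of 1087 coding bases with the overlapping gene model Gm20441. The Gstm, Gsta, Gstp, Cyp2c, Cyp3a, Cyp4f and Ugt2b genes are close relatives, and how reads that match several of them were assigned is not given in the sources used here. The library kit does not mark strand. In addition, Ugt1a7c shares 1593 of its 2451 coding bases with Ugt1a6a. On the opposite strand, 726 of the coding bases of Ugt1a1 lie in exons of Gm20528, 158 of the 1336 coding bases of Sult2b1 lie in exons of Lmtk3, and 448 of the 1679 of Cyp2u1 lie in exons of 4930534D22Rik.

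The promoter sequences of 6 members are shown because the results below turn on them: the 3 Cyp3a genes, of which 2 were called upward, and Cyp2w1, Cyp4b1 and Gstm7, whose calls against complete media did not depend on any single library. Each is the run of 250 bases before the start site, read in the direction of the gene (RefSeq, GRCm38.p6). Capitals mark matches, on either strand, to 1 of 4 short motifs: GCGTG, the core of the xenobiotic response element bound by Ahr, TGACNNNGC, the core of the antioxidant response element, CATTCC, the core of the TEAD site, and CAAAGTCCA, a site of the hepatocyte nuclear factor HNF4.
Cyp3a11 (chr5:145879855-145880104, minus strand): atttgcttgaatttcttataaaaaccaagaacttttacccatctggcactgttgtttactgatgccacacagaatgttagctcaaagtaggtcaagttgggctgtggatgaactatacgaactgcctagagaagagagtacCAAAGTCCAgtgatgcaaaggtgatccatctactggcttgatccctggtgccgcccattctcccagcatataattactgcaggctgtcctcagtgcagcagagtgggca
Cyp3a13 (chr5:137921620-137921869, minus strand): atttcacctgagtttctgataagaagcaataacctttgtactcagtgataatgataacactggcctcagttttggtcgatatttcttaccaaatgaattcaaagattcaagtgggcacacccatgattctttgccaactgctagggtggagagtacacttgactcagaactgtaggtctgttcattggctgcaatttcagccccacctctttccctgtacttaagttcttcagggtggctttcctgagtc
Cyp3a25 (chr5:146009619-146009868, minus strand): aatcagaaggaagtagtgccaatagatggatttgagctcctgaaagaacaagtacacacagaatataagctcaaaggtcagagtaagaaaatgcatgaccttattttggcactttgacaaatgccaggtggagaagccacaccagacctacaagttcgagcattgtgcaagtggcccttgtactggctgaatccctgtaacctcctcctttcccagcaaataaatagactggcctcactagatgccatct
Cyp2w1 (chr5:139352366-139352615, plus strand): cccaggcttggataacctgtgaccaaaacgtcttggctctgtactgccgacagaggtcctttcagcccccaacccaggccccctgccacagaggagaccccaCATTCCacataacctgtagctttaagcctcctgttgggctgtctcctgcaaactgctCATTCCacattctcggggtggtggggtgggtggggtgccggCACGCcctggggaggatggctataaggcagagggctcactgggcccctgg
Cyp4b1 (chr4:115647722-115647971, minus strand): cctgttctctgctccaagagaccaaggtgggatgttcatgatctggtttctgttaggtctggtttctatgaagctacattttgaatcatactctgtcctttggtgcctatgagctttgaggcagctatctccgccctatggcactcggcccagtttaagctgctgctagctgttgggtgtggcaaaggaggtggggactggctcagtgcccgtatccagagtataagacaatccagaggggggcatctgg
Gstm7 (chr3:107931818-107932067, minus strand): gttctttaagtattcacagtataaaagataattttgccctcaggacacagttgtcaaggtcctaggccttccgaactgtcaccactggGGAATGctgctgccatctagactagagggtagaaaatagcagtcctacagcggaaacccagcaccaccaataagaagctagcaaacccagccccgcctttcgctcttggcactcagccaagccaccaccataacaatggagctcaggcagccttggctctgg

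The window of Cyp2w1 held CATTCC at -148 and -91 and GCGTG, on the reverse strand, at -50, counted from the start site, where these are the positions of the first base. The window of Gstm7 held CATTCC on the reverse strand at -162, and that of Cyp3a11 held CAAAGTCCA at -109. No match to the 4 motifs stood in the windows of Cyp3a13, Cyp3a25 and Cyp4b1. Over 1 window for each of 52 members, CAAAGTCCA was found in 4 (7.69%), which were Cyp2c65, Cyp2c68, Cyp2c70 and Cyp3a11, and in 0.384% of all 32851 windows. CATTCC was found in 6 of the 52 (11.5%, against 12.6% of all), GCGTG in 12 (23.1%, against 28.2%) and TGACNNNGC in 2 (3.85%, against 10.2%). The shares are not like for like, as each member has 1 window and all windows include several for some genes. The Cyp2c genes with CAAAGTCCA are neighbours in 1 cluster and are not independent. Some windows lie far from the annotated start of the gene, by 25057 bases for Sult2b1 (counted for CATTCC), 17680 for Cyp2c29, 8643 for Gsta2 (counted for GCGTG) and 3802 for Gstp2. A match describes these letters only and is not evidence of binding.

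The first question was which enzymes responded to SCM or to Wnt5a. Calls rest on edgeR's quasi-likelihood test with Benjamini-Hochberg adjustment over 15497 genes (adjusted p below 0.05) and on a fold change above 1.5, and fold changes are given on the log2 scale with their standard error (SE). In SCM against complete media, where 6.08% of all genes tested were called, 5 of the 57 members rose (8.77%, against 4.96% of all genes tested) and 6 fell (10.5%, against 1.12%). The members that rose were Cyp2w1, Cyp3a25, Ugt2b5, Sult2b1 and Sult6b2, and those that fell were Cyp2c70, Cyp2d26, Cyp4b1, Gstm3, Gstm7 and Ugt2b35. In Wnt5a against complete media, where 10.2% were called, 6 rose (10.5%, against 8.29% of all genes) and 4 fell (7.02%, against 1.88%), namely Cyp2w1, Cyp3a13, Cyp3a25, Ugt2b5, Sult2b1 and Sult6b2 upward and Cyp2s1, Cyp4b1, Gstm2 and Gstm7 downward. The shares of members that rose were thus near those of all genes under Wnt5a, and the shares that fell were above those of all genes under both treatments. QCM, SCM and Wnt5a were all compared with the same 6 complete media libraries.

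**Figure D2:**
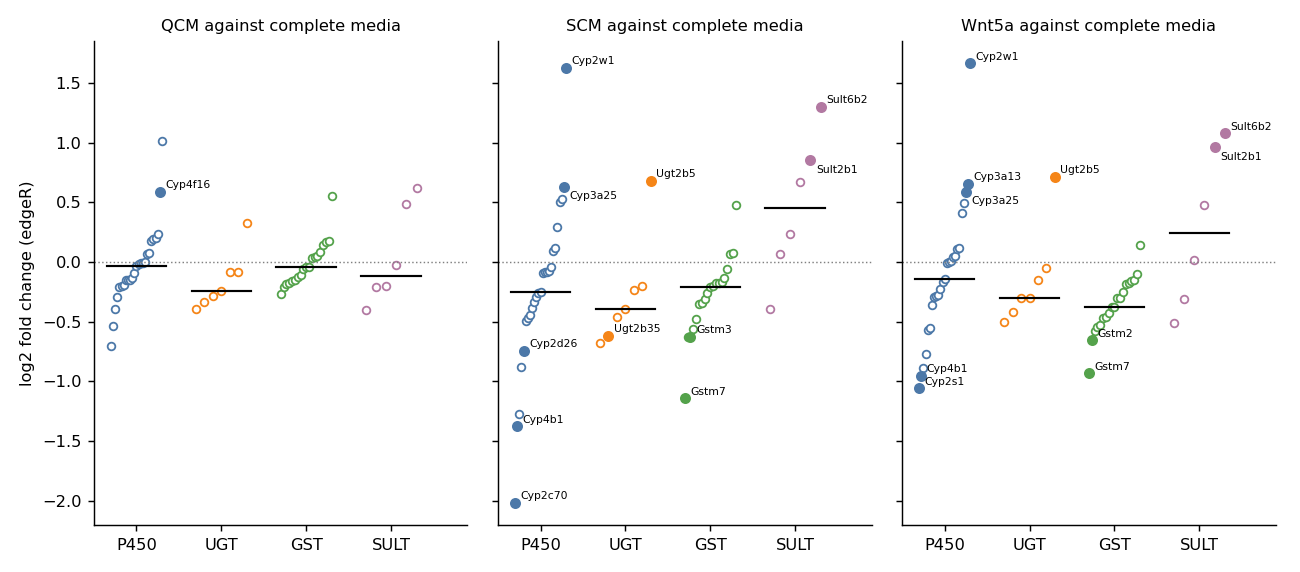
Log2 fold change of each member against complete media (vertical axis) in QCM, SCM and Wnt5a, by enzyme class. Filled points with names are called members, open points are not called, and the black line is the median of the class. The GST median is -0.04 in QCM, -0.21 in SCM and -0.37 in Wnt5a.

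Both counts depended on single libraries. The 11 members called in SCM became 6 without SCM + IgG replicate 1, 7 without complete media + IgG replicate 3 and 7 without complete media + IgG replicate 6, and the 10 called in Wnt5a became 6 without Wnt5a + IgG replicate 5. Without complete media + IgG replicate 3, the Wnt5a calls of Gstm2, Cyp3a13, Cyp3a25, Sult6b2 and Ugt2b5 were all lost. Called whichever single library was left out were Cyp2w1, Cyp4b1, Gstm7, Gstm3 and Cyp2d26 in SCM and Cyp2w1, Cyp4b1, Gstm7 and Cyp2s1 in Wnt5a. The remaining calls were lost without at least 1 library.

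Among the P450, Cyp2w1 (ENSMUSG00000029541, chr5:139352617-139357033), an enzyme known from the fetal gut and colon tumours, had the highest positive fold change. Its CPM ranged from 2.05 over a median of 4.80 to 6.79 in complete media, from 6.61 over 8.95 to 12.9 in QCM, from 7.74 over 14.7 to 18.2 in SCM and from 7.99 over 13.7 to 21.6 in Wnt5a. Every SCM and every Wnt5a library was above every complete media library, and the QCM libraries overlapped both. The log2 fold change was 1.63 (SE 0.28, adjusted p = 0.000123) in SCM and 1.67 (SE 0.28, adjusted p = 4.74e-05) in Wnt5a, while in QCM it was 1.02 (SE 0.28, adjusted p = 0.0898) and not called, although DESeq2 called it. SCM and QCM differed by 0.61 (SE 0.27, adjusted p = 0.225), so the response was not shown to be particular to senescent medium.

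Cyp4b1 (ENSMUSG00000028713, chr4:115624725-115647723), which oxidizes fatty acids and activates several toxins, fell. Its CPM ranged from 23.7 over a median of 34.4 to 47.5 in complete media, from 20.9 over 23.9 to 29.4 in QCM, from 9.89 over 13.9 to 17.1 in SCM and from 13.8 over 17.9 to 24.8 in Wnt5a. All SCM libraries lay under all those of complete media and of QCM, and Wnt5a overlapped complete media at its upper end. The change was -1.38 (SE 0.18, adjusted p = 2.33e-06) in SCM and -0.95 (SE 0.18, adjusted p = 0.000178) in Wnt5a against complete media.

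Of the 3 Cyp3a genes, 2 rose in at least 1 treatment, and differences between the genes were not tested. Cyp3a25 rose by 0.63 (SE 0.19, adjusted p = 0.0221) in SCM and by 0.59 (SE 0.19, adjusted p = 0.0195) in Wnt5a, with 36.7 CPM (SD 7.62, n = 6) in complete media, 56.9 (SD 10.8) in SCM and 55.2 (SD 16.3) in Wnt5a. Cyp3a13 rose by 0.66 (SE 0.19, adjusted p = 0.0111) in Wnt5a, from 264 CPM (SD 65.9) to 417 (SD 79.3), and its change of 0.53 in SCM was not called (adjusted p = 0.0635). Cyp3a11 had 430 CPM (SD 90.5) in complete media, 328 (SD 50.8) in SCM and 334 (SD 72.6) in Wnt5a, a difference of -0.39 and -0.36 that was not called (adjusted p = 0.0833 and 0.0762). The ranges of the libraries overlapped for all 3 genes. Summed over the subfamily, Cyp3a lay at 731 CPM (SD 126) in complete media, 766 (SD 69.6) in SCM and 806 (SD 86.8) in Wnt5a. Cyp3a13 was not called in Wnt5a without complete media + IgG replicate 3 or Wnt5a + IgG replicate 1, where it was 0.56 and 0.56. Cyp3a25 was lost in SCM without SCM + IgG replicate 2 or 3 or complete media + IgG replicate 1 or 6 (0.55 to 0.57). Its call in Wnt5a was also lost with library size alone, voom, no filter or only the groups compared (0.54 to 0.58), and without any of 7 libraries, which were replicates 2, 3, 4 and 5 of Wnt5a + IgG and 1, 3 and 6 of complete media + IgG (0.50 to 0.58).

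**Figure D3:**
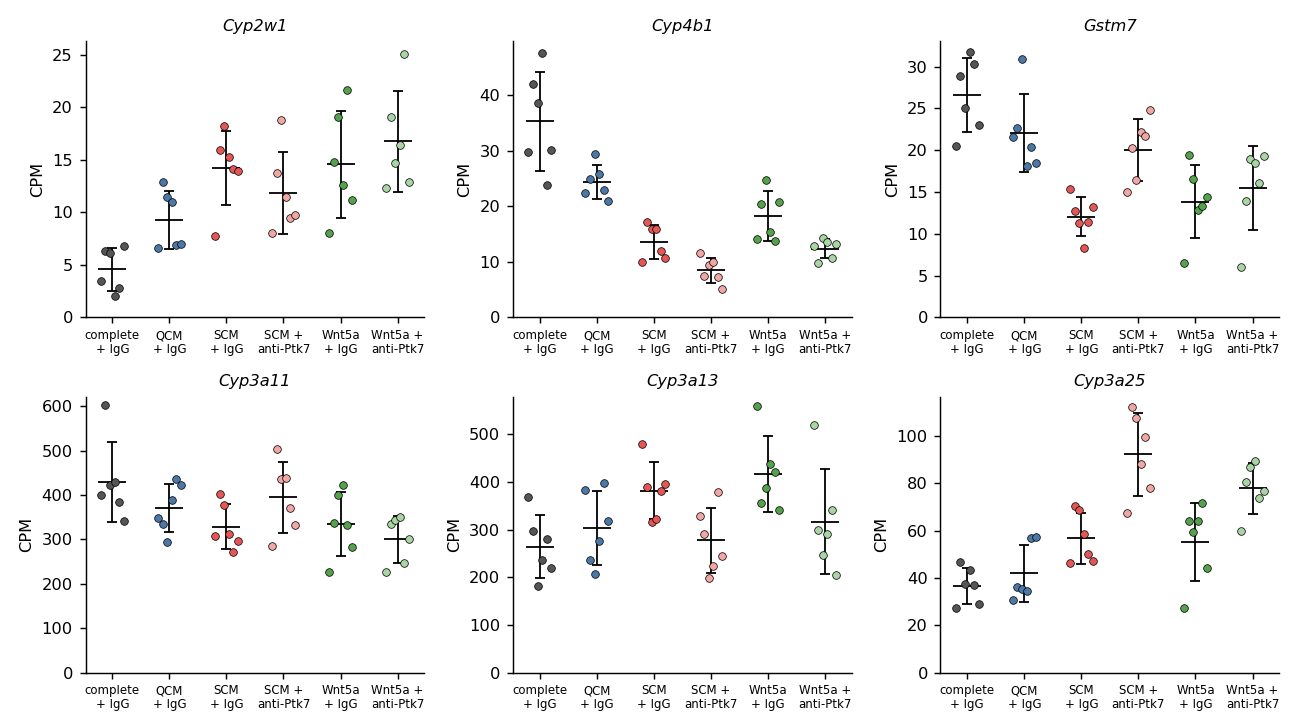
CPM (vertical axis, from 0) of 6 members in every library of the 6 treatment groups. Each point is 1 library, dashes and error bars are the mean and SD of 6. Cyp2w1 is lowest and Cyp4b1 and Gstm7 are highest in complete media, and the 3 Cyp3a genes differ in their order over the groups.

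The Cyp2c genes, which lie in 1 cluster on chromosome 19 between Cyp2c55 (from 39007019) and Cyp2c70 (to 40187333), had negative fold changes for all 7 members in QCM, SCM and Wnt5a, with a median of -0.29 in SCM. With single libraries left out, 6 or 7 of 7 were below 0 in each, and with at least 10 counts required in every library 5 members were left, of which 4 were below 0 in Wnt5a and 5 in SCM and in QCM. Only Cyp2c70 passed both thresholds, and it is also the rarest of the 7. This enzyme, which makes muricholic acids from bile acids in the mouse, had between 1.15 and 4.36 CPM in complete media and between 0 and 1.61 CPM in SCM, ranges that overlapped, and a change of -2.02 (SE 0.67, adjusted p = 0.0432). That call was lost without replicate 1, 3, 4, 5 or 6 of SCM + IgG or replicate 2, 3, 5 or 6 of complete media + IgG, with changes between -2.07 and -1.76. The abundant Cyp2c29 changed by -0.50 in SCM (SE 0.10, adjusted p = 0.00142), which is under the fold threshold, although its libraries, from 620 to 834 CPM in SCM and from 864 to 1207 CPM in complete media, did not overlap. Summed over the cluster, the level was 2215 CPM (SD 186) in complete media, 2006 (SD 238) in QCM, 1738 (SD 206) in SCM and 1856 (SD 315) in Wnt5a.

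Of the other P450, in SCM Cyp2d26 fell, by 0.74 on the log2 scale (SE 0.19, adjusted p = 0.00856), from 73.8 CPM (SD 15.4) to 44.0 (SD 14.8). In Wnt5a its change of -0.55 passed the p threshold alone (adjusted p = 0.0337). Cyp2s1, an extrahepatic P450 inducible through Ahr, fell in Wnt5a by 1.06 on the log2 scale (SE 0.28, adjusted p = 0.00641). Its CPM ranged from 10.6 to 28.1 in Wnt5a and from 26.1 to 65.8 in complete media, so the groups overlapped at the edge. In SCM its change was -0.33 (adjusted p = 0.503), and the difference between Wnt5a and SCM of -0.72 was not called (adjusted p = 0.148). Cyp2j6 and Cyp2b10 differed little, with changes between -0.09 and 0.08 over the 3 treatments and standard errors of 0.08 and 0.10, and Cyp4v3, Cyp2r1 and Cyp2u1 were not called.

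The GST had mostly negative fold changes. In SCM 16 of 19 were below 0 with a median of -0.21, and in Wnt5a 18 of 19 were below 0 with a median of -0.37, beside medians of 0.01 for all genes tested in both. Summed over the 19 members, the level was 4513 CPM (SD 252) in complete media, 4253 (SD 530) in QCM, 3555 (SD 260) in SCM and 3547 (SD 498) in Wnt5a. All 6 SCM libraries, at most 4007 CPM, and all 6 Wnt5a libraries, at most 4078 CPM, were under the lowest complete media library of 4244 CPM. Without SCM + IgG replicate 1 the number below 0 in SCM was 18, and without Wnt5a + IgG replicate 1 the number in Wnt5a stayed at 18. The members share paralogous sequence and are not independent.

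**Figure D4:**
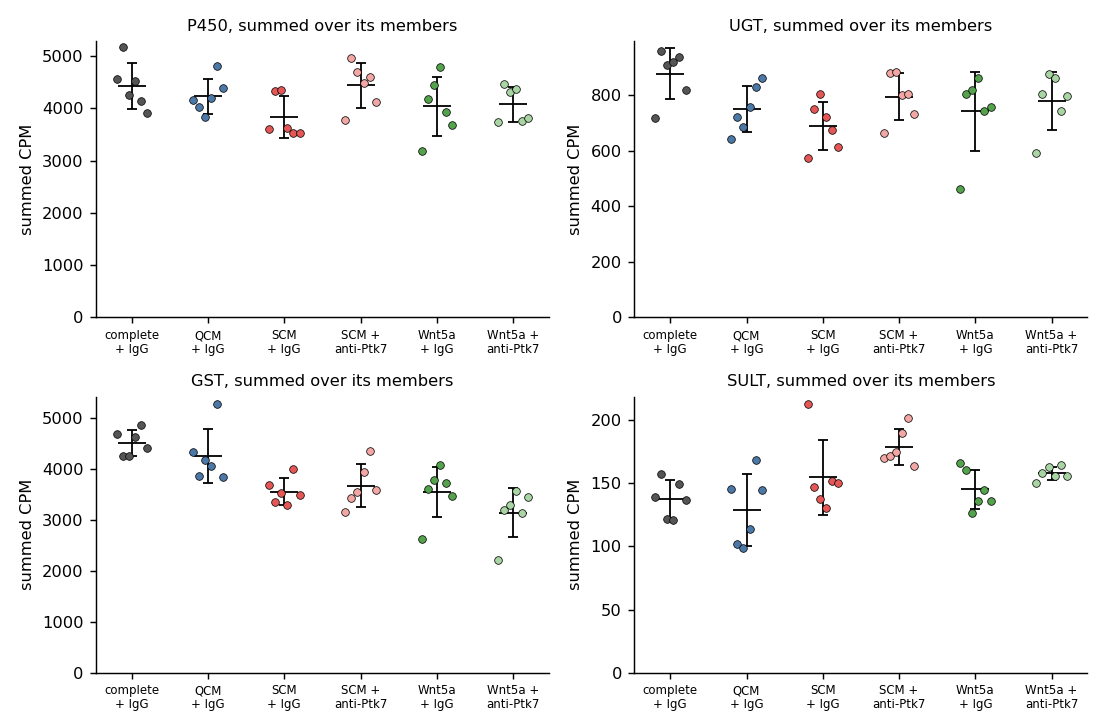
Summed CPM (vertical axis, from 0) of the members of each enzyme class in every library, with the mean and SD of the 6 libraries of a group. The GST sums of SCM and Wnt5a lie under those of complete media, while the P450 sums overlap and the SULT sums are higher in SCM + anti-Ptk7, from 164 to 202 CPM, than in complete media.

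The highest GST levels that changed were in the mu class, whose 7 genes form a cluster on chromosome 3 from Gstm5 (107895821) to Gstm4 (108044894). All 7 were below 0 in Wnt5a and 6 of 7 in SCM, Gstm5 being the exception with 0.07. Gstm7 (ENSMUSG00000004035) ranged from 20.5 over a median of 27 to 31.7 CPM in complete media, from 18.2 over 21 to 30.9 in QCM, from 8.31 over 12.1 to 15.4 in SCM and from 6.45 over 13.9 to 19.4 in Wnt5a. All SCM and Wnt5a libraries lay under all complete media libraries, and the changes were -1.14 (SE 0.21, adjusted p = 0.00039) and -0.93 (SE 0.21, adjusted p = 0.00147). Gstm3, a major GST transcript of these organoids, ranged from 574 to 820 CPM in SCM and from 889 to 1040 CPM in complete media and fell by 0.63 on the log2 scale (SE 0.15, adjusted p = 0.00489). Gstm1 stood at -0.56 in SCM with no overlap of the libraries (adjusted p = 0.0157) but under the fold threshold. Gstm2 fell in Wnt5a by 0.66 on the log2 scale (SE 0.24, adjusted p = 0.0453), a call lost without any 1 of 8 libraries, replicates 2, 3, 5 and 6 of complete media + IgG and 1, 2, 5 and 6 of Wnt5a + IgG, with changes between -0.69 and -0.51. The 7 genes summed to 2185 CPM (SD 143) in complete media, 1934 (SD 288) in QCM, 1483 (SD 202) in SCM and 1656 (SD 395) in Wnt5a.

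Other GST passed the p threshold without reaching the fold threshold. In Wnt5a these were Gsta4 with -0.37 (adjusted p = 0.00445), Gstt3 with -0.52 (adjusted p = 0.000587), Gstt2 with -0.47 (adjusted p = 0.0272), Gstz1 with -0.46 (adjusted p = 0.0133), Gsto1 with -0.18 (adjusted p = 0.0182), Gsta3 with -0.54 (adjusted p = 0.033), Gstm3 with -0.43 (adjusted p = 0.0389) and Gstm6 with -0.57 (adjusted p = 0.0194). The pi class member Gstp1 had 311 CPM (SD 41.9) in complete media, 271 (SD 48.7) in SCM and 252 (SD 49.7) in Wnt5a, and was not called.

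The UGT were split within the Ugt2b subfamily, whose enzymes glucuronidate steroids and drugs. Ugt2b5 rose by 0.68 (SE 0.23, adjusted p = 0.0429) in SCM and by 0.71 (SE 0.23, adjusted p = 0.0199) in Wnt5a, and its SCM libraries, from 14.1 to 19.8 CPM, did not overlap those of complete media, from 7.25 to 13.5 CPM. In SCM Ugt2b35 fell, by 0.62 on the log2 scale (SE 0.14, adjusted p = 0.00355), where its libraries, from 68.2 to 104 CPM, lay under the 107 to 150 CPM of complete media, and stood at -0.50 in Wnt5a (adjusted p = 0.00975). The abundant Ugt2b34 stood at -0.39 in SCM (adjusted p = 0.0393), and Ugt1a7c, Ugt1a1 and Ugt2a3 were not called. The SCM call of Ugt2b5 was lost without any SCM + IgG library but replicate 3 and without replicates 1, 2, 3 and 6 of complete media + IgG (0.59 to 0.70), and with library size alone, voom or no filter (0.60 to 0.68, adjusted p = 0.0567, 0.0697 and 0.0766), its Wnt5a call without complete media + IgG replicate 3 or Wnt5a + IgG replicate 4 or 5 (0.63 to 0.65), and the SCM call of Ugt2b35 without SCM + IgG replicate 1 or complete media + IgG replicate 5 (-0.57 for both). The 7 UGT summed to 877 CPM (SD 90.9) in complete media, 690 (SD 85.9) in SCM and 741 (SD 143) in Wnt5a.

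Of the 6 SULT, 2 rose in both treatments. Sult2b1 rose by 0.85 (SE 0.27, adjusted p = 0.0322) in SCM and by 0.96 (SE 0.27, adjusted p = 0.00842) in Wnt5a, from 24.8 CPM (SD 7.62) to 44.9 (SD 19.3) and 48.4 (SD 20.9), with overlapping ranges. Sult6b2 rose by 1.30 (SE 0.36, adjusted p = 0.0152) and by 1.08 (SE 0.36, adjusted p = 0.0285), from 4.22 CPM (SD 2.47) to 10.4 (SD 4.41) and 8.95 (SD 5.29). Single libraries weighed on both genes. The Wnt5a mean of Sult6b2 included 1 library at 19.7 CPM beside 5 between 6.07 and 7.70 CPM, and without it, Wnt5a + IgG replicate 5, the change was 0.69 (adjusted p = 0.178). The Wnt5a mean of Sult2b1 included 1 library at 89.6 CPM, replicate 1, without which the change was 0.70 (adjusted p = 0.0601). The same replicate numbers were highest in every group, in complete media with 8.64 CPM for Sult6b2 and 38.2 CPM for Sult2b1. Leaving such a library out of 1 group only unbalances the comparison. With the replicate number in the model, both genes were still called in SCM and in Wnt5a. The Sult6b2 call in Wnt5a was also lost without complete media + IgG replicate 2, 3, 4 or 6 (0.93 to 1.04), and in SCM without SCM + IgG replicate 1 or complete media + IgG replicate 3 (1.15 for both). The Sult2b1 call in SCM was lost without SCM + IgG replicate 1 or 5 or complete media + IgG replicate 2, 3, 4 or 6 (0.64 to 0.83). Sult1d1 stood at -0.51 in Wnt5a (adjusted p = 0.0197), and Sult1b1 and Sult4a1 were not called.

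Whether senescent medium differed from quiescent medium was tested directly. In QCM against complete media only 1 of the 57 members was called (1.75%, against 0.374% of all genes, 0.355% higher and 0.0194% lower). It was Cyp4f16, an omega-hydroxylase of fatty acids, which rose by 0.59 (SE 0.13, adjusted p = 0.0182) from 49.8 to 76.6 CPM in complete media to 82.0 to 102 CPM in QCM, just over the fold threshold, and was lost without QCM + IgG replicate 2, 3, 4 or 6 or without any complete media + IgG library but replicate 2 (0.52 to 0.58). In SCM and Wnt5a its changes of 0.50 and 0.49 were under the fold threshold. In SCM against QCM, 2 members were called (3.51%, against 0.903% of all genes, 0.761% higher and 0.142% lower), both lower in SCM. Gstm7 stood at -0.87 (SE 0.21, adjusted p = 0.0299) and Cyp4b1 at -0.84 (SE 0.18, adjusted p = 0.0131), and for both the libraries did not overlap. The Gstm7 call was lost without QCM + IgG replicate 2, 3 or 4 or SCM + IgG replicate 4 or 5 (-0.89 to -0.75), and the Cyp4b1 call without QCM + IgG replicate 3 (-0.78). All 19 GST were below 0 in this comparison, with a median of -0.16 (-0.28 without SCM + IgG replicate 3) against -0.01 for all genes, and 6 of 6 SULT were above 0, or 5 without any 1 of 7 libraries, replicates 1, 2, 3 and 4 of QCM + IgG and 1, 2 and 3 of SCM + IgG. Between Wnt5a and SCM, edgeR called 0 of the 57 members, with 6 members and 2936 of all 15497 genes at an unadjusted p under 0.05, and DESeq2 also called 0, beside 0.69% of all genes called by edgeR (0.297% higher, 0.394% lower).

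The next question was whether the antibody against Ptk7 changed these enzymes. Its action on shed Ptk7 and on the organoids' own Ptk7 cannot be told apart here. In SCM 2 of the 57 were called (3.51%, against 1.23% of all genes, 0.581% higher and 0.645% lower). Cyp3a25 rose further, from 46.3 over a median of 54.2 to 70.4 CPM in SCM + IgG to 67.7 over 94.1 to 112 CPM in SCM + anti-Ptk7, a change of 0.70 (SE 0.18, adjusted p = 0.0307). Cyp4b1 fell further, from 9.89 over 13.9 to 17.1 CPM to 5.12 over 8.39 to 11.5 CPM, by 0.68 on the log2 scale (SE 0.18, adjusted p = 0.0355). For these 2 genes the antibody moved the level in the same direction as SCM had moved it from complete media. Both ranges overlapped at the edge. The call of Cyp3a25 was lost without replicate 1, 4, 5 or 6 of SCM + IgG or 2, 3 or 5 of SCM + anti-Ptk7 (0.62 to 0.70), that of Cyp4b1 without replicate 2, 3 or 4 of SCM + IgG or 2, 5 or 6 of SCM + anti-Ptk7 (-0.65 to -0.59) and with voom, no filter or only the groups compared (-0.70 to -0.68, adjusted p = 0.0593, 0.0587 and 0.144), and without SCM + IgG replicate 4 or SCM + anti-Ptk7 replicate 2 the count was 0. Gstm7 had 20.1 CPM (SD 3.70) with the antibody against 12.1 (SD 2.37) with IgG, a change of 0.73 that missed the threshold (SE 0.21, adjusted p = 0.0533) but was called by DESeq2 and with at least 10 counts required in every library. Across the members, 41 of 57 were above 0 with a median of 0.26, beside 0.00 for all genes, and among them all 7 Cyp2c. The median was 0.15 without SCM + IgG replicate 1 and 0.16 without SCM + anti-Ptk7 replicate 3.

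**Figure D5:**
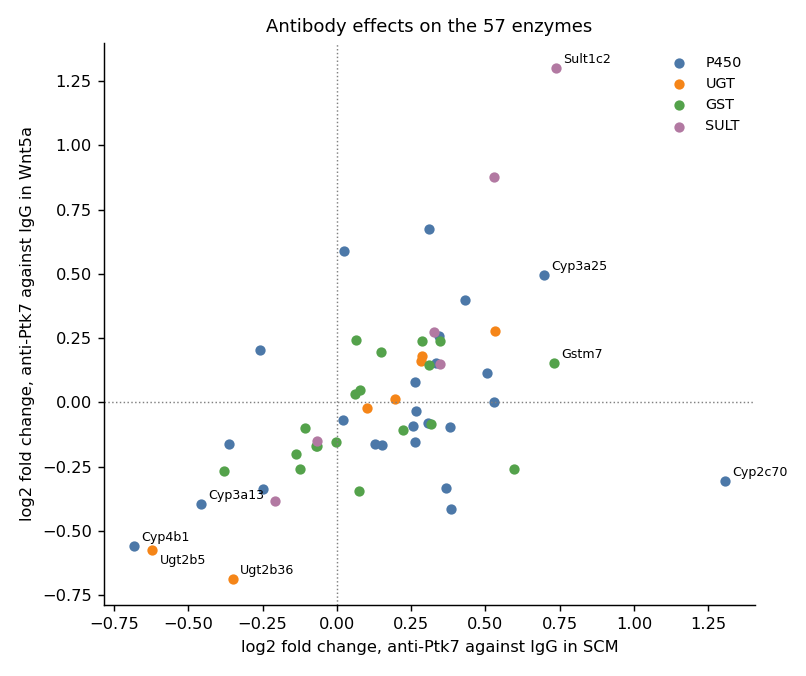
Log2 fold change of anti-Ptk7 against IgG for each member in SCM (horizontal axis) and in Wnt5a (vertical axis), coloured by enzyme class. The 2 comparisons share no library. Sult1c2, at 0.74 and 1.30, lies at the upper right and Cyp4b1, at -0.68 and -0.56, at the lower left.

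In Wnt5a 1 of the 57 was called (1.75%, against 0.884% of all genes, 0.452% higher and 0.432% lower). Sult1c2, a cytosolic sulfotransferase, rose by 1.30 (SE 0.26, adjusted p = 0.00424), from 4.00 over a median of 7.06 to 9.40 CPM in Wnt5a + IgG to 7.30 over 18.3 to 21.6 CPM in Wnt5a + anti-Ptk7. Of the antibody libraries, 5 lay above all those with IgG and replicate 1 did not. In SCM its change was 0.74 (SE 0.26, adjusted p = 0.116). Neither SCM nor Wnt5a had moved it from complete media, with changes of 0.06 (adjusted p = 0.91) and -0.31 (adjusted p = 0.442). Gsto1 was lower in every Wnt5a + anti-Ptk7 library, from 522 to 669 CPM, than in any Wnt5a + IgG library, from 696 to 768 CPM, but its change of -0.26 was under the fold threshold (adjusted p = 0.00884). The members had a median of -0.07 in this comparison, which turned to 0.05 without Wnt5a + anti-Ptk7 replicate 1 and to 0.01 without Wnt5a + IgG replicate 4, so no direction is given for them. The difference between the antibody's effects in Wnt5a and in SCM was tested as an interaction. The edgeR test called 0 of the 57 and 0 of all genes, with 5 members and 602 genes at an unadjusted p under 0.05, so no antibody effect on these enzymes was shown to differ between SCM and Wnt5a.

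The genes around these enzymes were taken from lists. Of 28 sensors and regulators, all tested, the vitamin D receptor Vdr fell in SCM by 0.81 on the log2 scale (SE 0.15, adjusted p = 0.000265), and in Wnt5a Ahr rose by 1.01 (SE 0.16, adjusted p = 3.23e-05) and Pparg by 0.94 (SE 0.20, adjusted p = 0.00064). Beside these, 1.12% of all genes fell in SCM and 8.29% rose in Wnt5a. Nr1i2, Nr1i3, Nfe2l2 and Hnf4a were not called in either. Of 41 tested genes of other phase I families, 2 rose (4.88%) and 4 fell (9.76%) in SCM, beside 4.96% and 1.12% of all genes, and 3 rose (7.32%) and 4 fell (9.76%) in Wnt5a, beside 8.29% and 1.88%. The retinal dehydrogenase gene Aldh1a3 rose by 3.38 (SE 0.65, adjusted p = 0.000564) and 4.29 (SE 0.66, adjusted p = 1.39e-05), while the mitochondrial Aldh1b1 fell by 0.86 and 0.99 on the log2 scale (adjusted p = 0.00103 and 0.000104). Cyp1b1, an Ahr target, rose in Wnt5a by 3.09 (SE 0.71, adjusted p = 0.00165). With anti-Ptk7, 1 rose and 1 fell in SCM (2.44% each, beside 0.581% and 0.645% of all genes) and 2 rose and 2 fell in Wnt5a (4.88% each, beside 0.452% and 0.432%). Cyp1a1, the classical Ahr target, rose by 1.39 in SCM (SE 0.37, adjusted p = 0.0323) and by 1.5 in Wnt5a (SE 0.37, adjusted p = 0.0189), the alcohol dehydrogenase gene Adh6a fell in SCM by 1.28 on the log2 scale (adjusted p = 0.017), and the carboxylesterase gene Ces2g fell in Wnt5a by 0.72 on the log2 scale (adjusted p = 0.00703).

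In phase II outside the 4 families, 2 of 12 tested genes rose in SCM (16.7%, beside 4.96% of all genes), the mitochondrial and peroxisomal Gstk1 by 0.79 (adjusted p = 0.00427) and the arylamine acetyltransferase Nat2 by 0.74 (adjusted p = 0.00591), and Gstk1 also rose in Wnt5a by 0.73 (adjusted p = 0.00429), where 1 of 12 is 8.33%, beside 8.29% of all genes. Of 20 genes that supply cofactors, 1 (5%) was called, beside 4.96% of all genes higher in SCM and 8.29% in Wnt5a. This was Papss2, which makes the sulfate donor of the SULT. It rose by 0.87 in SCM (SE 0.26, adjusted p = 0.0263) and by 1.31 in Wnt5a (SE 0.26, adjusted p = 0.000431). Of 10 electron transfer and haem partners of the P450, only the haem oxygenase gene Hmox1 (10%) was called, beside the same 4.96% and 8.29% of all genes. It was higher by 0.92 in SCM and 1.19 in Wnt5a (adjusted p = 0.0221 and 0.00159). Of 24 transporters tested, the peptide carrier Slc15a1 fell in SCM by 1.21 on the log2 scale (adjusted p = 0.0135), beside 1.12% of all genes lower. With anti-Ptk7 in SCM, 2 of the 24 transporters fell, beside 0.645% of all genes. These were the bile acid carrier Slc10a2 by 1.41 and the efflux pump Abcc1 by 0.96 on the log2 scale (adjusted p = 0.0257 and 0.0165). In Wnt5a 4 rose (16.7%, beside 8.29% of all genes) and 1 fell (4.17%, beside 1.88%), and those that rose included the efflux pumps Abcc5 by 1.14 (adjusted p = 0.00475) and Abcc3 by 0.66 (adjusted p = 0.00243).

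Cell type markers moved in the same comparisons. Of all genes tested, 4.96% rose and 1.12% fell in SCM against complete media, and 8.29% rose and 1.88% fell in Wnt5a. The 7 fetal-like epithelium markers summed to 471 CPM in complete media (183 to 859.5), 2362 CPM in SCM (1213 to 4118) and 5131 CPM in Wnt5a (3288 to 9642). Of 6 tested, 5 rose in SCM (83.3%) and 6 in Wnt5a (100%). In QCM 1 of the 6 rose (16.7%), and in SCM against QCM 2 rose (33.3%). Of 13 enterocyte markers, 5 rose (38.5%) and 1 fell (7.69%) in SCM, and 4 rose (30.8%) and 1 fell (7.69%) in Wnt5a. In QCM 3 of the 13 rose (23.1%, against 0.355% of all genes), and in SCM against QCM 0 were called. The sum of the 13 was 3071 CPM in complete media (2619.5 to 3712), 3744 in SCM (3087 to 4288) and 3541 in Wnt5a (2999 to 3907). Among them Alpi rose in SCM by 1.26 and Anpep, aminopeptidase N, fell by 1.46 on the log2 scale, so that brush border genes also moved in opposite directions. The 5 stem cell markers summed to 2015 CPM in complete media (1626 to 2232), 1599 in SCM (1048 to 1907) and 1646 in Wnt5a (927 to 2025), and 1 of 5 (20%) fell in SCM and in Wnt5a. Of 5 Paneth cell markers, Mmp7 and Ang4 (40%) rose in both SCM and Wnt5a, while in Wnt5a the other 3 were below 0, Lyz1 at -0.35, Itln1 at -0.36 and Defa24 at -0.11. Of 5 tuft cell markers tested, 3 rose in Wnt5a (60%, beside 8.29% of all genes) and 0 in SCM (beside 4.96%). The sum of the tuft cell markers was 11.2 CPM in complete media and 28 CPM in Wnt5a. Of 6 pan-epithelial markers, Krt8 and Krt18 rose in SCM (33.3%), and these and Cdh1 rose in Wnt5a (50%). Of 7 goblet cell and 7 enteroendocrine cell markers, edgeR called 0 in SCM and in Wnt5a against complete media. In QCM 1 Paneth cell marker (20%) and 1 enteroendocrine cell marker (14.3%) rose. In SCM against QCM 1 Paneth cell marker rose (20%), beside 0.761% of all genes. With anti-Ptk7 the fetal-like markers summed to 1104 CPM in SCM (517 to 2045) and 4059 CPM in Wnt5a (2222 to 8826). All 6 tested were below 0 in both, and 1 of them (16.7%), Ly6a, fell in both, by 1.73 and 1.55 on the log2 scale. Of the enterocyte markers Alpi fell in both (7.69%), and of the enteroendocrine markers Cck fell in both and Sct in SCM (28.6% in SCM, 14.3% in Wnt5a). Of 5 Paneth cell markers, 1 fell in Wnt5a (20%), with 4 below 0, and 0 were called in SCM. Of all genes, 0.645% fell with anti-Ptk7 in SCM and 0.432% in Wnt5a. The part of these shifts in the levels of the enzymes was not tested.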

How the data were processed

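RNA of 36 libraries, 6 from each of 6 treatments, had been amplified by Smart-Seq V4 and sequenced single-end. The authors aligned the reads with GSNAP under HTSeqGenie to mm10 and counted reads within coding sequences. They deposited these counts per gene, unnormalized. The annotation and the use of strand are not given in the sources used here. Positions, symbols and coding lengths came from GENCODE on GRCm38.

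Libraries were grouped by their labels. In R 4.3.3, edgeR 4.0.16 kept 15497 genes by filterByExpr, all 57 members included, scaled libraries by TMM (factors 0.908 to 1.03) and fitted 6 group means by quasi-likelihood. All genes were adjusted together by Benjamini-Hochberg, and calls needed adjusted p-values below 0.05 with fold changes above 1.5. Printed CPM are TMM-scaled, while the minimum of 1 CPM used library totals. Between replicates the chi-square per gene was at least 7.60, so no pair was treated as 1 library deposited again, while separate preparations of the same RNA cannot be told apart by this. The labels do not say which libraries share a mouse, so p-values measure the spread between libraries. No term for the replicate number was in this fit, so that spread includes any difference between replicate numbers. The script was tested on simulated data.

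The members and the gene lists were chosen with earlier results of these data known. Named were all called members, the member of each subfamily with the highest CPM per kb and up to 3 called genes for each list and comparison, with further members where a sentence compares them. Alternatives were RLE scaling, library size alone, DESeq2 1.42.0, voom with limma 3.58.1 on quantile-normalized values (the authors' method), other filters, no fold-change threshold, fits to the compared groups alone, a replicate block and each library left out in turn. A called transporter that the naming rule covers is not reported here.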

Additional observations from a re-analysis of the deposited data

Results flagged for a closer look

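The spread between the 6 libraries of a group was checked with Dixon's gap ratio for the 16 called members and for the summed levels of the classes, 126 groups of values in all. Of these, 16 held a library whose gap exceeded the critical ratio for 6 libraries, where chance flags about 1 in 20 groups, and the values share libraries and members.

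Of the flagged values, 5 were low values of a library numbered 1. In Wnt5a + IgG replicate 1, Ugt2b35 had 51.5 CPM against 94.2 to 112 CPM in the other libraries, and the UGT summed to 462 CPM against 742 to 861 CPM. In Wnt5a + anti-Ptk7 replicate 1, Cyp2d26 had 29.8 CPM against 49.4 to 59.7 CPM, Sult1c2 had 7.30 CPM against 16.7 to 21.6 CPM, and the GST summed to 2220 CPM against 3137 to 3563 CPM. High values of libraries numbered 1 were Sult2b1 in Wnt5a + IgG with 89.6 CPM against 34.4 to 49.5 CPM, and the SULT sum in SCM + IgG with 213 CPM against 130 to 152 CPM.

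Libraries numbered 5 held 7 of the high values. In QCM + IgG replicate 5, Gstm3 had 1096 CPM against 699 to 835 CPM, Ugt2b5 had 19.7 CPM against 8.90 to 11.7 CPM, the GST summed to 5266 CPM against 3842 to 4331 CPM and all members to 11067 CPM against 8706 to 9277 CPM. In SCM + IgG replicate 5, Gstm3 had 820 CPM against 574 to 642 CPM and Ugt2b5 had 19.8 CPM against 14.1 to 16 CPM. In Wnt5a + IgG replicate 5, Sult6b2 had 19.7 CPM against 6.07 to 7.70 CPM. The remaining values were those of QCM + IgG replicate 3, with Cyp2s1 at 66.2 CPM against 22.5 to 35.9 CPM and Gstm7 at 30.9 CPM against 18.2 to 22.6 CPM. What set these libraries apart was not tested.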

How the results depend on the processing

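The counts of called members varied with the processing. In QCM the 1 call became 0 with RLE scaling, library size alone, no filter or only the groups compared, and DESeq2 lost Cyp4f16 but gained Cyp2w1. The 11 calls in SCM were kept by RLE scaling, DESeq2 and the fit to the compared groups. Library size alone lost Ugt2b5 and gained Gstm1, voom lost Sult2b1 and Ugt2b5 and gained Gsta2 and Cyp2c38, no filter lost Cyp2c70 and Ugt2b5, and at least 10 counts in every library lost Cyp2c70. The 10 calls in Wnt5a were kept by RLE scaling, DESeq2 and the 10-count filter. Library size alone lost Cyp3a25 and gained Gstm6, Cyp2d26 and Cyp4f14, voom lost Cyp3a25 and Sult6b2 and gained Gstm6 and Cyp4f14, no filter lost Cyp3a25 and Gstm2 and gained Gstm6 and Cyp4f14, and the compared groups alone lost Cyp3a25 and Sult6b2 and gained Cyp2u1. Without the fold threshold, 17 members passed in SCM (6 higher, 11 lower), 23 in Wnt5a (7 higher, 16 lower) and 2 with anti-Ptk7 in Wnt5a, beside 1842, 3386 and 398 of all 15497 genes. The count with anti-Ptk7 in SCM was 1 with voom, with no filter and with only the groups compared, each of which lost Cyp4b1. With single libraries left out, the counts ranged from 0 to 1 in QCM, 6 to 10 in SCM, 6 to 12 in Wnt5a, 0 to 2 in SCM against QCM, 0 to 3 with anti-Ptk7 in SCM and 1 to 2 in Wnt5a, and stayed at 0 for Wnt5a against SCM and for the interaction. No called member changed sign under any alternative run.

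The replicate numbers were not taken as pairing, as the labels do not say what a number stands for. For single genes a number did carry across groups. Sult2b1 was highest in replicate 1 of every group, and Sult6b2 in replicate 5. Libraries of the same number deviated from their group means together with a mean r of 0.092, against -0.018 for different numbers, and 34 of 90 pairs were over 0.1. The mean r was 0.241 for number 1 and 0.134 for number 3, against 0.0231 to 0.0627 for the others. Blocking on the replicate number gave 14 calls in SCM (Cyp2c38, Cyp2u1 and Ugt2b36 gained), 12 in Wnt5a (Cyp3a25 lost, Gstm6, Cyp2u1 and Cyp4f14 gained), 2 in QCM (Cyp2w1 gained), 5 in SCM against QCM (1 higher, 4 lower), 1 in Wnt5a against SCM, 5 with anti-Ptk7 in SCM (3 higher, 2 lower, with Gstm7, Sult1c2 and Ugt2b5 gained) and 2 in Wnt5a.

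Over the 4 other scalings or tools, 16 of 19 GST were below 0 in SCM, 18 in Wnt5a and all 19 in SCM against QCM. The list had 57 members with TMM-scaled CPM, 63 at a minimum of 0.5 CPM and 54 at 2 CPM. The GST counts without libraries numbered 1 were chosen after seeing the data, and without SCM + IgG replicate 1 the count below 0 in SCM against QCM was 18. Depth limits Cyp2c70 most among the called members, at 0 to 1.61 CPM in SCM.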
